A study of Mus musculus with 3 samples.

Results

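*Gad1*, *Gad2*, *Slc32a1*, *Slc6a5* and *Slc6a9*, genes for the making, loading and recapture of the inhibitory transmitters GABA and glycine, were followed across the annotated cell types of 3 single-cell libraries of developing mouse retina. The genes were taken by name from the raw count matrices, and are 5 of 19946 genes over the 3 libraries together (18823 in the explant, 17851 in the P0 and 17849 in the P14 matrix). All 5 were present in each matrix.

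Amacrine cells are the inhibitory interneurons of the inner retina, and most of them release either GABA or glycine. *Gad1* and *Gad2* encode the larger and the smaller glutamate decarboxylase, which make GABA from glutamate. *Slc32a1* encodes the vesicular transporter that loads both transmitters into synaptic vesicles, while *Slc6a5* and *Slc6a9* encode plasma membrane glycine transporters, the latter a standard marker of glycinergic amacrine cells in the adult retina.

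The explants were wild-type CD1 retinas dissected at embryonic day 14 and grown for 6 days with 0, 5, 50 or 500 nM of a small-molecule agonist of the somatostatin receptor Sstr2, with 2 samples per dose and an age equivalent to P0. The P0 and P14 libraries each held 1 sample labelled *Sstr2* +/+, 2 labelled +/- and 2 labelled -/-, untreated littermate retinas of mixed C57BL/6 and CD1 background, and are called wild type, heterozygous and knockout by these labels. In every library the samples were marked with membrane-bound barcodes (MULTI-seq), pooled and sequenced as one 3′ library, in which transcripts are counted by unique molecular identifiers (UMIs). How many retinas a sample held is not stated, so p-values measure the spread between samples, which may in part be technical. A P0 or P14 sample is called a retina below for short.

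The samples held 1281682 to 4237324 UMIs in the explants, 8822880 to 10793649 at P0 and 1266730 to 5886669 at P14. The explant and P0 libraries shared 9 cell barcodes, the explant and P14 libraries 4, and the P0 and P14 libraries 7. *Sstr2* itself did not separate the genotypes in the direction of the labels. In P0 neurogenic progenitors, which carry most of it, it stood at 112 CPM (UMI counts scaled to a common total) in the retina labelled wild type, 189 and 248 in those labelled heterozygous, and 294 and 375 in those labelled knockout. The study itself also reports more *Sstr2* mRNA in neurogenic progenitors of P0 mutants than in those of controls. Where the deletion lies relative to the counted 3′ end is not given in the sources used here, so these counts do not check the genotypes, and every direction given by genotype rests on the labels.

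The amacrine class held 1372 of 5607 explant cells, 1013 of 5706 P0 cells and 68 of 3298 P14 cells. The summed level of 10 amacrine markers was 3729 CPM in the explants and 3952 at P0, against 247 and 270 for 6 horizontal cell markers. At P14 the class was mixed: the sums were 5151 CPM for 9 amacrine and 4628 for 6 horizontal markers. It also held 1198 CPM of 8 ganglion markers, of which 7 were highest in this class, although P14 bipolar cells held a higher sum, 1291 CPM. Of the 68 cells, 12 carried 2 or more UMIs of the horizontal cell transcription factor genes *Onecut1*, *Onecut2* and *Lhx1*, and these 12 held 55.4% of the UMIs of the class. They held 2 *Gad1*, 1 *Gad2* and 65 *Slc32a1* UMIs, with 0 UMIs of *Slc6a5* and *Slc6a9*. Of the 12, 1 also carried UMIs of the ganglion markers *Pou4f2* and *Rbpms*, and it held the only *Gad2* UMI. The P14 retinas held 15 (wild type), 4 and 4 (heterozygous), 22 and 23 (knockout) amacrine cells. The P14 levels, the comparison with P0 and the unthinned co-detection of *Gad1* and *Gad2* are therefore given with and without those 12 cells, a filter chosen after the data were seen. It was applied to P14 only, and P0 and explant amacrine cells with such UMIs stayed in. Over the remaining 56 cells together, the sums were 4503 CPM of amacrine, 343 of horizontal and 913 of ganglion markers, and 2 of these cells carried *Pou4f2* and *Rbpms* UMIs, with 0 UMIs of the 5 genes.

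On GRCm38 with GENCODE M21, *Gad1* (chr2:70553072-70602014), *Gad2* (chr2:22622205-22693874), *Slc32a1* (chr2:158610767-158615748), *Slc6a5* (chr7:49910146-49963856) and *Slc6a9* (chr4:117834506-117875198) all lie on the plus strand. The antisense gene *Gad1os* overlaps *Gad1*, *Gm14205* overlaps *Slc32a1*, and *Ccdc24* and *B4galt2* overlap *Slc6a9* from the opposite strand. Whether counting used strand is not stated in the sources used here, and without it reads of such pairs cannot be told apart.

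Stretches upstream of the RefSeq starts are shown for the 3 genes with the most amacrine UMIs. The reason is that *Gad1* and *Gad2*, which catalyse the same reaction, had the different patterns described next, and *Slc32a1* went with one more than the other. All 3 stretches begin 250 bases before the start. They end 87 (*Gad1*), 122 (*Gad2*) and 0 (*Slc32a1*) bases before it, so the bases nearest the start are missing for *Gad1* and *Gad2*. Capitals mark each match to CANNTG, the E-box bound by basic helix-loop-helix factors, which reads the same on both strands. All 3 are plus-strand sequences of RefSeq on GRCm38.p6.
Gad1, chr2:70561879-70562041: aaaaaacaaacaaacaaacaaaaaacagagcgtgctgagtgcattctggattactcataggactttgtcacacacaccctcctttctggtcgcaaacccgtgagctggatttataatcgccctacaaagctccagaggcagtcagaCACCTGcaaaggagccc
Gad2, chr2:22622077-22622204: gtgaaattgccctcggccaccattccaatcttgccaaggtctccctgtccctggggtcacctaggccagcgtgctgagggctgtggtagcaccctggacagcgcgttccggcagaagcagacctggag
Slc32a1, chr2:158610508-158610757: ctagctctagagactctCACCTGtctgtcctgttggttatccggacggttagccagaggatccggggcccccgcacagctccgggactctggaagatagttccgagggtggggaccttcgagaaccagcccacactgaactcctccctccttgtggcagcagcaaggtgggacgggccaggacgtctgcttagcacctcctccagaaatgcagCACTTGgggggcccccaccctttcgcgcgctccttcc
The *Gad1* stretch held 1 match in 163 bases, the *Gad2* stretch 0 in 128 and the *Slc32a1* stretch 2 in 250. Different parts of the 3 promoters were searched, so these counts cannot be set against each other. Of 32851 promoters, 52.1%, 43.9% and 66.2% held a match in the same stretch, so a match is common at this length. The *Gad1* stretch lies within an intron of the annotated *Gad1* gene and within *Gad1os*, and that of *Slc32a1* overlaps an exon of *Gm14204*.

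At P0, *Gad1*, *Gad2* and *Slc32a1* were highest in amacrine cells, and the 2 decarboxylase genes differed outside them. Levels are CPM of the UMIs summed per sample and cell type, given as mean ± SD over samples with at least 10 cells. *Gad1* stood at 64.3 CPM in the wild-type P0 retina, 58.0 and 60.6 in the retinas labelled heterozygous and 49.4 and 41.7 in those labelled knockout, or 54.8 ± 9.13 (SD, n = 5). In the other P0 types it was near 0, with a mean of at most 0.31 CPM, and all 85 ganglion cells (RGCs) held 0 *Gad1* UMIs, although their median of 24853 UMIs was the deepest of the library. No sample of another type reached the lowest amacrine sample.

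*Gad2* was the most counted of the 5 genes in P0 amacrine cells, at 336 CPM (wild type), 273 and 258 (heterozygous) and 282 and 324 (knockout), with a mean of 295 ± 33.6. Unlike *Gad1*, it was also counted in every other P0 type. It stood at 31.0 ± 4.80 CPM in primary progenitors, 32.5 ± 9.12 in neurogenic progenitors, 31.5 ± 8.44 in photoreceptors and 9.29 ± 7.78 in RGCs, and the ranges of the 3 highest of these overlapped. In photoreceptors 145 of 1142 cells carried 2 or more UMIs of *Onecut1*, *Onecut2* and *Lhx1*, and these held 129 of the 255 *Gad2* UMIs (80.3 CPM), against 20.3 CPM in the other 997. A single cell held 20 of the 255.

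The ratio of the 2 genes differed between these types beyond counting error. *Gad2* made up 84.3% of the *Gad1* and *Gad2* UMIs in P0 amacrine cells (2449 and 455 UMIs, 95% Clopper-Pearson interval 83.0 to 85.6%), but 99.4% in primary progenitors (832 and 5 UMIs, 98.6 to 99.8%), 99.4% in neurogenic progenitors (175 and 1) and 98.8% in photoreceptors (255 and 3). These intervals cover counting error only. A *Gad2* UMI was found in 21.8% of P0 primary progenitors (610 of 2797, median 8759 UMIs) and a *Gad1* UMI in 0.143%. After each cell was thinned to 2000 UMIs, the *Gad2* share was 5.80% in primary progenitors, 1.18% in RGCs and 38.0% in amacrine cells.

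In the explants *Gad2* was again highest in amacrine cells, but the order of the other types differed from P0. *Gad2* stood at 334 ± 35.3 CPM in amacrine cells (272 to 372, n = 8), 45.6 ± 3.92 in primary progenitors, 35.4 ± 13.3 in neurogenic progenitors, 16.4 ± 16.2 in RGCs and 13.2 ± 3.03 in photoreceptors. *Gad1* stood at 55.8 ± 17.0 CPM in amacrine cells (33.6 to 84.3) and at 50.0 ± 33.8 in the explant RGC class (12.2 to 118, n = 7), and these ranges overlapped. *Slc32a1* also overlapped between the 2 classes, at 53.8 ± 7.95 CPM in amacrine cells (40.1 to 63.1) and 67.6 ± 59.0 in RGCs (0 to 185). The explant RGC class rested on 30 *Gad1* and 38 *Slc32a1* UMIs in 200 cells. *Gad2* made up only 30.2% of its 43 *Gad1* and *Gad2* UMIs (17.2 to 46.1%), against 85.1% in explant amacrine cells (83.6 to 86.4%) and 91.1% in primary progenitors (87.8 to 93.7%).

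Markers of other types were also counted in the explant RGC class. The explant RGC class held a summed 2781 CPM of ganglion, 1983 of amacrine and 885 of bipolar markers, while the P0 RGC class, with 1553 CPM of amacrine markers, held 0 UMIs of *Gad1* and *Slc32a1*. The part of these markers in the *Gad1* and *Slc32a1* levels was not tested.

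*Slc32a1*, the vesicular transporter, was nearly restricted to amacrine cells at P0, which held 96.6% of its UMIs, against 98.1% for *Gad1* and 65.6% for *Gad2*. It stood at 64.9, 65.7, 85.8, 81.3 and 65.4 CPM in the amacrine cells of the wild-type, 2 heterozygous and 2 knockout retinas (72.6 ± 10.1) and at a mean of at most 2.13 CPM elsewhere. At least 1 UMI of it was found in 39.3% of P0 amacrine cells (398 of 1013) and 20.8% of explant amacrine cells (286 of 1372), against 1.23% and 0.542% of photoreceptors.

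Both glycine transporter genes were near the limit of detection in newborn and explant amacrine cells. *Slc6a5* was counted 21 times in P0 amacrine cells (2.62 ± 1.27 CPM) and 4 times in the explants, where 6 of 8 samples were at 0. *Slc6a9* was counted 50 times in P0 amacrine cells (6.09 ± 3.25 CPM, 1.69 to 9.18) and 29 times in the explants (4.79 ± 2.27). It was not highest there. Its highest mean was in photoreceptors, at 17.2 ± 7.23 CPM at P0 (8.22 to 28.2) and 14.5 ± 5.56 in the explants (5.26 to 21.1), with ranges that overlapped those of amacrine cells.

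The ratio of *Slc6a9* to *Slc32a1* set the photoreceptors apart from the amacrine cells. Of the UMIs of these 2 genes, *Slc6a9* gave 89.3% in P0 photoreceptors (142 of 159, 83.4 to 93.7%) and 7.66% in P0 amacrine cells (50 of 653, 5.74 to 9.97%). The shares were 89.5% and 7.84% in the explants. At P14, *Slc6a9* stood at 25.1 ± 2.23 CPM in rods (21.7 to 27.0, n = 5), 14.0 ± 4.59 in cones, 6.31 ± 4.45 in bipolar cells and 6.14 ± 8.21 in Müller glia, and it gave 92.0% of these UMIs in rods. In P14 amacrine cells it gave 27.6% (53 of 192), a value carried by 1 retina, since it was 4% in the wild-type, 20% in the first and 41.2% in the second knockout retina, and 13.7% over all cells without the last. Without the 12 cells it was 41.7% (53 of 127).

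**Figure D1:**
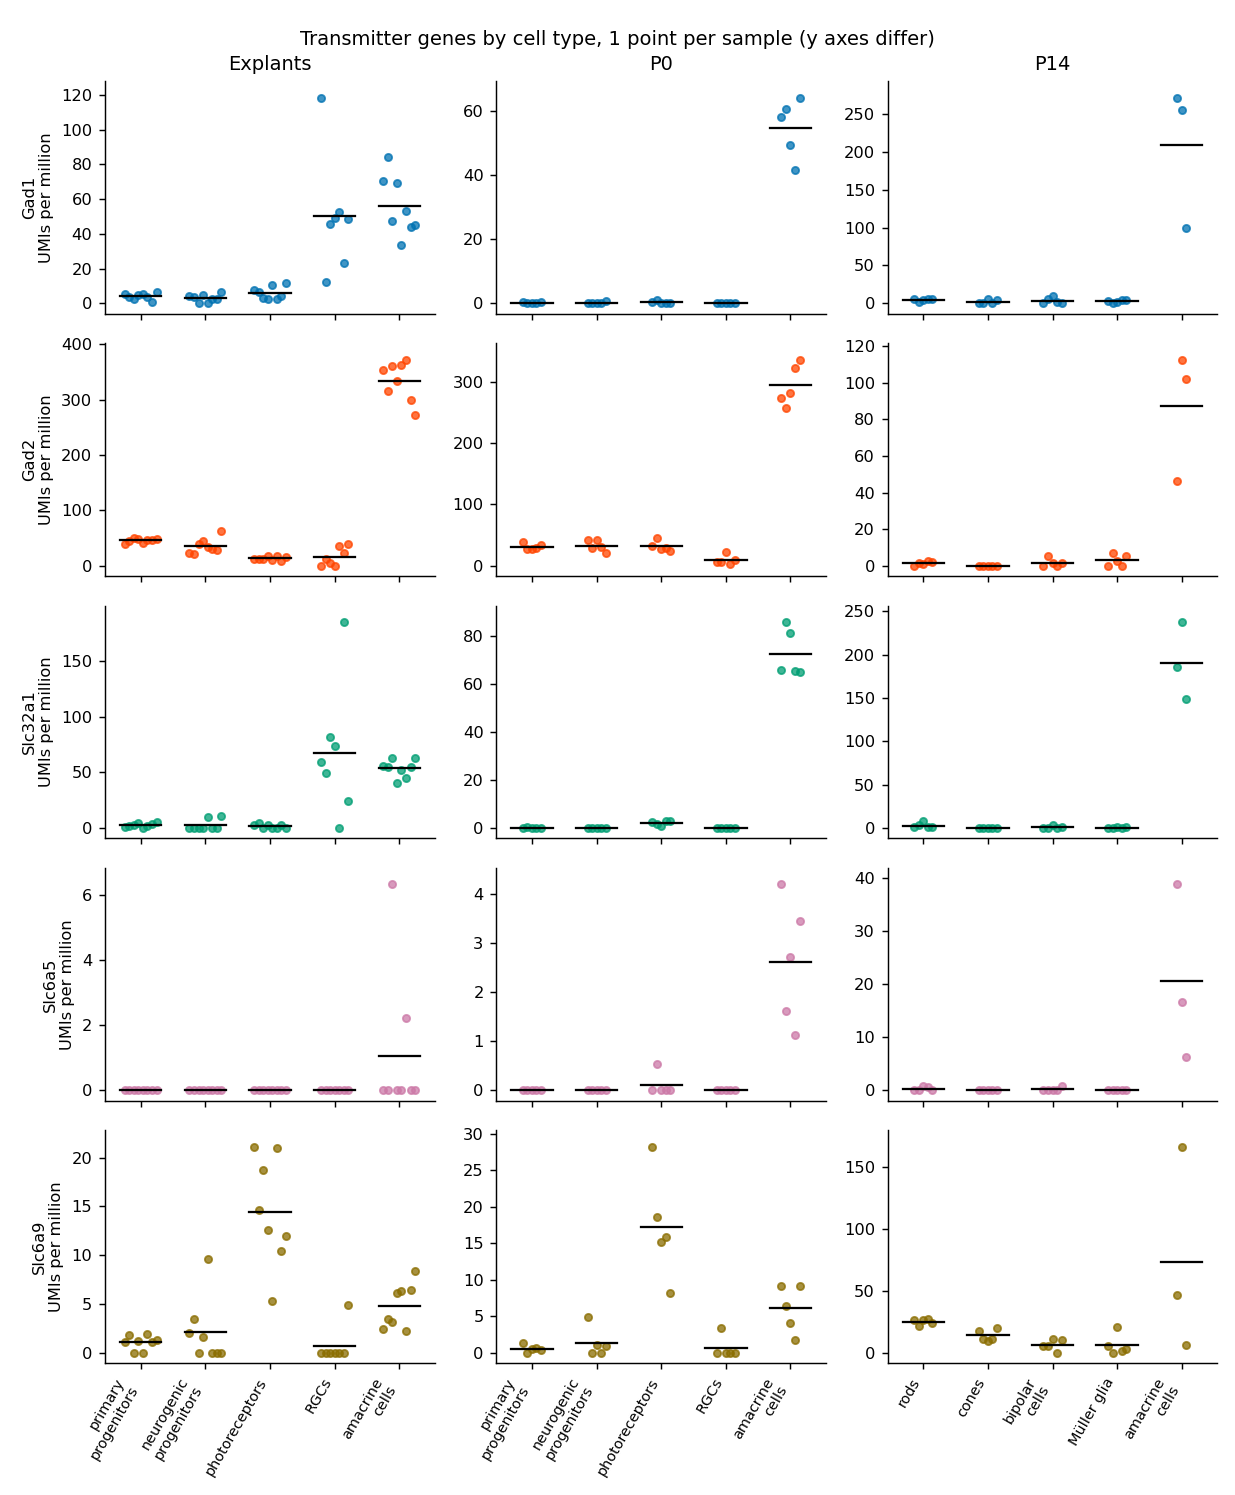
Level of each of the 5 genes (rows) by cell type in the explant, P0 and P14 libraries (columns), in CPM of UMIs summed per sample and cell type; each point is 1 sample with at least 10 cells, the line is the mean over samples, and the y axes differ between panels. *Gad1*, *Gad2* and *Slc32a1* peak in amacrine cells at P0 (54.8, 295 and 72.6 CPM), whereas the highest *Slc6a9* mean at P0 and in the explants is in photoreceptors (17.2 and 14.5 CPM).

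**Figure D2:**
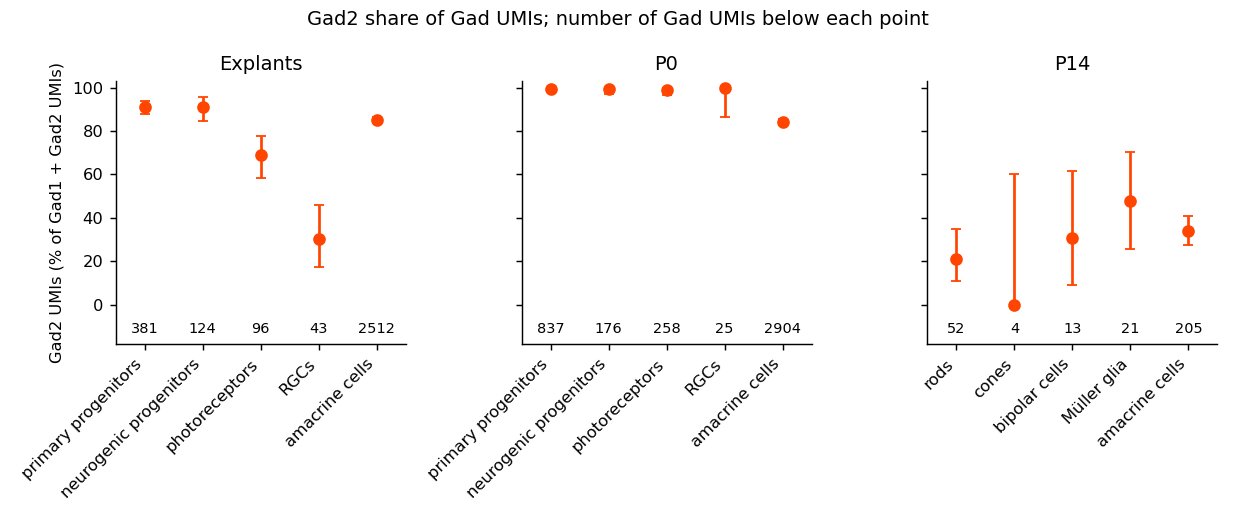
*Gad2* as a percentage of the *Gad1* and *Gad2* UMIs of each cell type, over all samples of a library; bars are 95% Clopper-Pearson intervals and cover counting error only, and the number under each point is the UMIs behind it. The share is 84.3% in P0 and 85.1% in explant amacrine cells, 99.4% in P0 primary progenitors, and 34.1% in P14 amacrine cells.

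At P14 the amacrine class held more *Gad1* than *Gad2* UMIs, an excess that came mostly from the knockout retinas. The whole class held 135 *Gad1* and 70 *Gad2* UMIs, a *Gad2* share of 34.1% (27.7 to 41.1%), in place of 84.3% at P0, and the share was 34.2% without the 12 cells. It was 50.8% in the wild-type retina (33 *Gad2* and 32 *Gad1* UMIs), 14.6% and 30.7% in the knockout retinas (6 and 35, 27 and 61), and the heterozygous retinas held 0 and 3, and 4 and 4. Single cells held much of this. A cell of the second knockout retina held 31 *Gad1* UMIs and another 20, and a cell of the first held 14. One wild-type cell held 20 *Gad1* and 25 *Gad2* UMIs. The interval covers counting error only, not this spread between cells. In the 3 P14 retinas with at least 10 amacrine cells, *Gad1* stood at 99.0 CPM (wild type) and 271 and 254 (knockout), all above the highest P0 retina. *Gad2* stood at 102 CPM (wild type) and 46.5 and 113 (knockout), all below the lowest P0 retina. *Slc32a1* was higher than at P0 in each of the 3, at 149, 186 and 238 CPM.

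These differences were tested on the summed counts with the quasi-likelihood test of edgeR, adjusted over all genes by Benjamini-Hochberg, at a threshold of 0.05. Over all 5 retinas of each age, 41.5% of 8068 genes passed, so a call is common in this comparison. *Gad1* was higher at P14 by 1.66 on the log2 scale (SE 0.27, adjusted p = 1.8e-05) and *Slc32a1* by 1.27 (SE 0.22, adjusted p = 3.36e-05), and *Gad2* fell by 1.81 on the log2 scale (SE 0.35, adjusted p = 1.77e-04). *Slc6a5* and *Slc6a9* were below the filter on low counts in this fit. Age and library cannot be told apart here, since each age is 1 library.

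Without the 12 cells that held *Onecut1*, *Onecut2* or *Lhx1* UMIs, *Gad1* differed more from P0 and *Gad2* less. The filter is one-sided, since P0 cells with such UMIs were kept. P0 amacrine cells with *Gad1* but not *Gad2* held 145 *Lhx1* UMIs. The remaining P14 cells held 386 CPM of *Gad1* in the wild-type retina and 428 and 371 in the knockout retinas, every one above the highest P0 level of 64.3. *Gad2* stood at 411 CPM (wild type) and 73.3 and 164 (knockout), a range that spans the P0 range. The wild-type *Gad2* value rests mostly on 1 of the 10 cells left in that retina, which held 25 *Gad2* and 20 *Gad1* UMIs. *Slc32a1* stood at 206, 171 and 256 CPM, above every P0 retina. In the 3 retinas with at least 10 amacrine cells, where 34.3% of 9863 genes passed the edgeR test, *Gad1* was higher by 2.52 on the log2 scale (SE 0.19, adjusted p = 1.99e-08) and *Slc32a1* by 1.30 (adjusted p = 2.48e-04). The fall of *Gad2* shrank to 0.83, from a log2 change of -0.83 (SE 0.31, adjusted p = 0.0454). In the fit with all 5 P14 retinas, where 35.1% of 7634 genes passed, it missed the threshold, at a log2 change of -0.80 (adjusted p = 0.0714). The fit with 3 P14 retinas holds wild-type and knockout ones, while its P0 side also holds heterozygous ones, so genotype make-up differs with age there. In bulk sums fewer cells with a gene and less RNA per cell cannot be told apart.

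Both glycine transporter genes were counted more in the P14 amacrine class. *Slc6a9* stood at 6.19 CPM in the wild-type retina, inside the P0 range, and at 46.5 and 167 in the knockout retinas. It had 53 UMIs in all, in 14 cells, of which 40 came from the second knockout retina, where 1 cell held 17. Without the 12 cells it stood at 25.7 CPM in the wild-type retina, a value of 2 UMIs from 1 cell, and at 73.3 and 243 in the knockout retinas. These levels were above every P0 retina, and *Slc6a9* was called higher than at P0 by 4.21 on the log2 scale (adjusted p = 1e-05, edgeR). *Slc6a5* had 11 UMIs, at 25.7 (again 2 UMIs from 1 cell), 61.1 and 24.3 CPM without the 12 cells, and was higher by 3.39 (adjusted p = 6.13e-04). A *Slc6a9* UMI was found in 20.6% of P14 amacrine cells (14 of 68) but also in 8.45% of rods (192 of 2271), with median depths of 4512.5 and 3374 UMIs. For *Gad1* the shares were 38.2% of amacrine cells and 1.72% of rods. Without the 12 cells the amacrine shares were 25% for *Slc6a9* and 44.6% for *Gad1*.

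**Figure D3:**
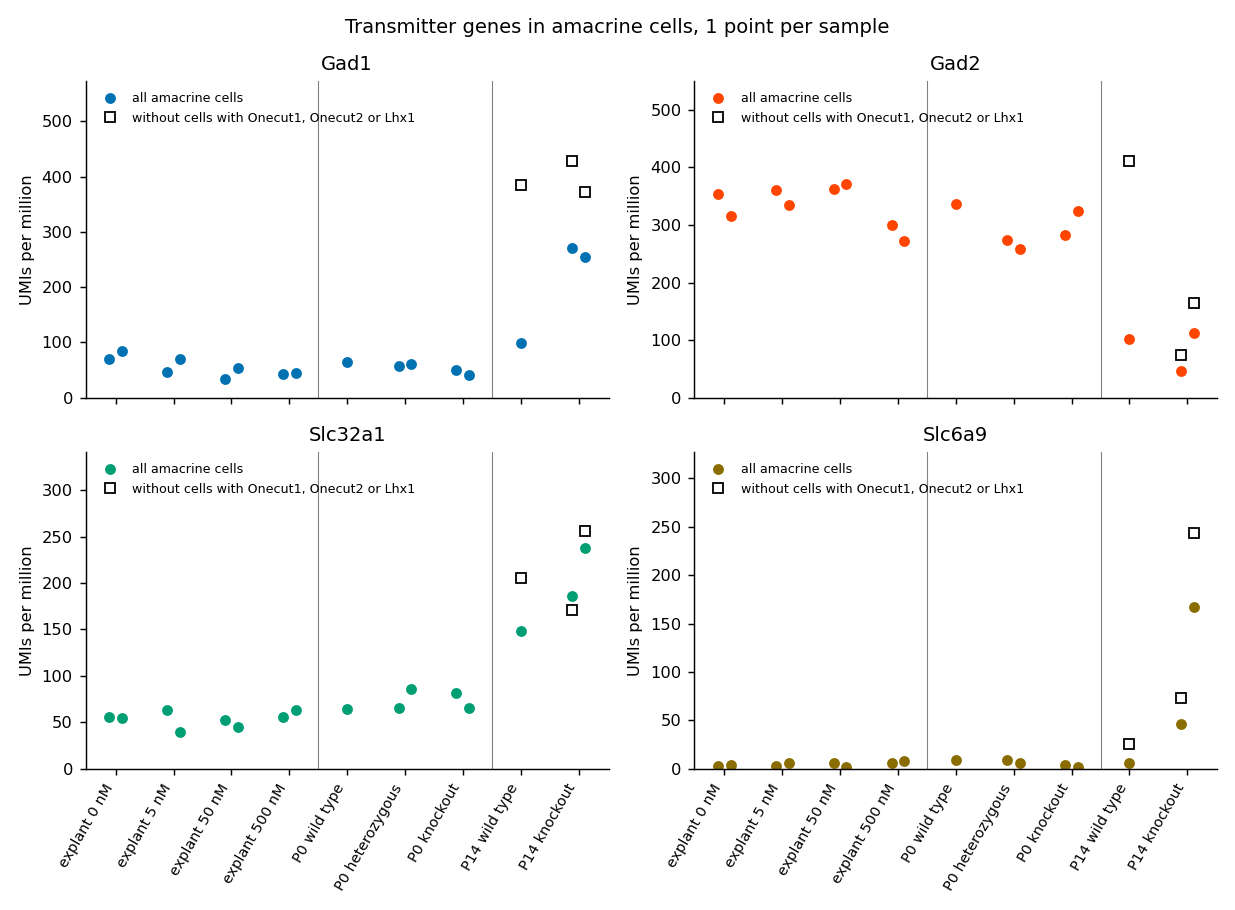
*Gad1*, *Gad2*, *Slc32a1* and *Slc6a9* in amacrine cells, in CPM per sample by dose, genotype and age; filled points are all amacrine cells of a sample, open squares the P14 samples without cells that held *Onecut1*, *Onecut2* or *Lhx1* UMIs, and P14 heterozygous samples, with 4 cells each, are not drawn. The 3 P14 samples sit above all P0 samples for *Gad1* (99.0 to 271 against 41.7 to 64.3 CPM) and *Slc32a1*, while the open squares for *Gad2* (73.3 to 411 CPM) span the P0 range. The highest of these squares, the wild-type sample, rests mostly on 1 cell.

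Other genes of inhibitory transmission were counted from fixed lists in the same fit (3 P14 retinas, without the 12 cells; median log2 change of all genes tested -0.16), in which 15.8% of all genes were called higher and 18.5% lower at P14. Of 17 GABA receptor subunit genes, 10 were tested, and 7 rose and 0 fell at P14, the same counts as with the 12 cells. Of 5 glycine receptor genes, 3 were tested, 2 rose and 0 fell (2 and 1 with the 12 cells), with *Glra3* higher by 4.93 and *Glrb*, the anchoring subunit, by 4.22. *Slc12a5*, the transporter that lowers intracellular chloride in mature neurons, rose by 2.65 (adjusted p = 9.02e-08). Of 16 uptake and recycling genes, 15 were tested, and 5 rose and 3 fell (3 and 3 of 14 with the 12 cells). Of 12 markers of glycinergic or narrow-field amacrine types, 9 were tested, 6 rose and 1 fell, but with the 12 cells only 4 rose and 1 fell. In the fits with all 5 P14 retinas 6 were tested, and 3 rose and 1 fell without the 12 cells, 1 rose and 1 fell with them. Those that rose without the 12 cells in the 3 retinas included *Ebf1* (3.60), *Gjd2*, the gap junction protein of AII cells (3.23), and *Ppp1r17* (2.71). Markers of GABAergic types moved in both directions (12 of 19 tested, 2 rose, 5 fell, also with the 12 cells), with *Tfap2a*, *Lhx9*, which is on both marker lists, and *Meis2* at log2 changes of -1.36, -1.42 and -1.86.

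Explant and P0 amacrine cells, which match in nominal age, differed in *Slc32a1* and not detectably in the decarboxylase genes. *Slc32a1* fell by 0.48 on the log2 scale in the explants (SE 0.11, adjusted p = 8.76e-04, edgeR), where 37.7% of 8088 genes passed, 18.4% higher and 19.3% lower. *Gad1* differed by 0.04 (adjusted p = 0.851) and *Gad2* by 0.14 (adjusted p = 0.136). Of the GABAergic markers 11 were tested, 0 rose and 9 fell, and of the GABA receptor genes 5 were tested, 1 rose and 3 fell. Of the glycinergic or narrow-field markers 6 were tested, 1 rose and 3 fell, and the 1 glycine receptor gene tested fell. Culture, strain and library cannot be told apart in this comparison.

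The next question was whether single amacrine cells carried the 2 decarboxylase genes together. In the P0 and explant amacrine cells they did so less often than their separate frequencies would give. At P0, 155 cells held UMIs of both, 109 of *Gad1* only, 540 of *Gad2* only and 209 of neither, where independence would put 181 cells in the first class. *Gad2* was found in 58.7% of cells with and 72.1% of cells without *Gad1*. The share was lower in the cells with *Gad1* in each P0 retina, at 58.0% against 75.0% (wild type), 62.2% against 71.3% and 61.1% against 68.8% (heterozygous), and 60.4% against 71.3% and 51.0% against 73.5% (knockout). The mean difference was -13.4 ± 6.20 percentage points (SD, n = 5).

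In the explants 116 cells held both, against 157 under independence, with 133 *Gad1* only, 751 *Gad2* only and 372 neither. *Gad2* was found in 29.2 to 58.5% of cells with *Gad1* and 61.6 to 71.2% of cells without it, lower in 8 of 8 samples, with a mean difference of -20.5 ± 12.4 points.

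At P14 the direction was the opposite in both knockout retinas. Of 68 cells, 13 held both genes, 13 *Gad1* only, 8 *Gad2* only and 34 neither, against 8.03 with both under independence. *Gad2* was found in 40.0% of cells with and 8.33% of cells without *Gad1* in the first knockout retina, and in 85.7% and 25.0% in the second. The wild-type retina gave 33.3% in both sets, so its difference was 0. The mean over the 3 retinas was 30.8 ± 30.4 points, and without the 12 cells 27.9 ± 27.5.

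The P14 and P0 differences were compared over samples. They lay 44.2 points apart, with every P14 retina above every P0 retina (exact permutation test of 3 against 5 retinas, two-sided, p = 0.0357, the smallest this design allows, and adjusted p = 0.0833 over 7 tests of cells by detection). Without the 12 cells the gap was 41.4 points at the same p, and without the second P14 knockout retina it was 29.3 points. This test fails the correction, and it was added after the data were seen. Its P14 side held no heterozygous retina, unlike its P0 side.

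Depth alone moves such shares, so each cell was also thinned to a fixed number of UMIs, and the association was given as a log2 odds ratio with 0.5 added to each cell of the table. With few cells that addition lifts the ratio above 0, which affects P14 most. Over 100 draws at 2000 UMIs the mean log2 odds ratio was -1.23 ± 0.69 in the explants (8 of 8 samples below 0), -0.94 ± 0.31 at P0 (5 of 5 below 0) and 1.27 ± 0.37 at P14 (3 of 3 above 0). At 3000 UMIs the means were -1.25, -0.94 and 2.22, and at 1000 UMIs -0.86, -0.77 and 1.15, with 7 of 8 explant samples below 0. P14 exceeded P0 by 2.21 at 2000 UMIs (exact permutation test, two-sided, p = 0.0357, the smallest for 3 against 5).

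**Figure D4:**
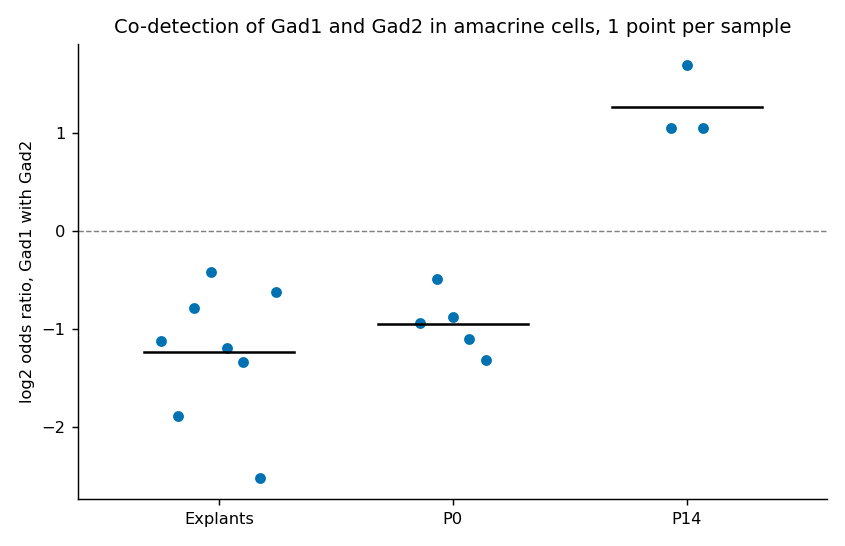
Log2 odds ratio of finding *Gad1* and *Gad2* in the same amacrine cell, per sample, as the mean of 100 draws with each cell thinned to 2000 UMIs; samples with at least 10 amacrine cells are shown and 0 marks independence. All 8 explant and all 5 P0 samples lie below 0 (means -1.23 and -0.94) and the 3 P14 samples above it (mean 1.27), where 0.5 added to small tables lifts the value.

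*Slc32a1* went with *Gad1* more than with *Gad2* in newborn amacrine cells. Without thinning, its mean log2 odds ratio with *Gad1* was 1.23 ± 0.61 at P0 (5 of 5 samples above 0) and 1.30 ± 0.86 in the explants (8 of 8), and with *Gad2* 0.10 ± 0.33 and -0.31 ± 0.57. After 1 draw at 2000 UMIs the values with *Gad1* were 0.50 ± 0.63 (4 of 5 above 0) and 0.95 ± 1.19 (6 of 8), so the association was weaker at equal depth. These are descriptions over samples, with no test.

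Cells were also sorted by side, with a UMI of *Gad1* or *Gad2* as the GABA side and a UMI of *Slc6a5* or *Slc6a9* as the glycine side. At P0, 746 of 1013 amacrine cells had the GABA side only, 6 the glycine side only, 58 both and 203 neither, of which 57 held *Slc32a1*. In the explants the numbers were 975, 7, 25 and 365 of 1372. At P14, 21 of 68 cells had the GABA side only, 7 the glycine side only, 13 both and 27 neither, 9 of these with *Slc32a1*. The numbers were 19, 7, 13 and 17 of 56 without the 12 cells. Thinned to 2000 UMIs, 8 of 1013 P0 cells, 8 of 1358 explant cells and 7 of 63 P14 cells had the glycine side only, and 10, 5 and 3 both. The log2 odds ratio of the 2 sides differed between P14 and P0 by -0.64 (exact permutation test, two-sided, p = 0.563, adjusted p = 0.563 over 7 tests). With under 10 cells of the glycine side only in each sample, no comparison of gene expression between the sides was possible.

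Amacrine cells with *Gad1* only were then compared with those with *Gad2* only, a split chosen after the data were seen, on sums per sample with the sample as a block and with *Gad1* and *Gad2* left out of the test. The explants held 133 and 751 such cells in all (median 4601 and 4815 UMIs), and the 6 samples with at least 10 of each entered the test. P0 held 109 and 540 (7434 and 7187.5 UMIs), and all 5 retinas entered. *Slc32a1* was higher in *Gad1*-only cells. In the explants it stood at 89.3 against 41.7 CPM, a log2 difference of 1.11 (SE 0.26, adjusted p = 9.48e-04, edgeR), higher in 6 of 6 samples, where 21.1% of 3803 genes passed (10.3% higher, 10.8% lower). At P0 it stood at 98.3 against 64.8 CPM, a log2 difference of 0.56 (SE 0.19, adjusted p = 0.0291), higher in 5 of 5, where 23.1% of 6111 genes passed (12.1% higher, 11% lower). The P0 call was lost in 6 of 10 alternative settings.

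Far larger differences separated the 2 classes in other genes. Higher in *Gad1*-only cells of the explants were *Cbln2*, a synapse organiser (log2 difference 2.90, at P0 3.18), *Gucy1a1* (2.74 and 2.80) and *Gucy1b1* (2.75 and 2.48), the subunits of the nitric oxide receptor guanylate cyclase, *Ly6h* (2.75 and 2.75) and *Rd3l* (2.69 and 1.92). Higher in *Gad2*-only cells were *Ptf1a*, the bHLH factor that specifies amacrine and horizontal cells (-4.93 and -7.20), *Slc1a6*, a glutamate transporter (-5.12 and -2.93), *St18* (-4.73 and -4.61), *Gm13889* (-4.70 and -2.43) and *E130114P18Rik* (-4.68 and -2.84). *Ptf1a* stood at 185 CPM in P0 *Gad2*-only and 0.87 in *Gad1*-only cells.

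The genes with the largest P0 differences included *Isl1*, a marker of starburst amacrine, ganglion and bipolar cells, at 167 CPM in *Gad1*-only and 0.62 in *Gad2*-only cells (log2 difference 7.53). *Npy* (5.58), *Islr2* (4.65), *Scg2* (4.54) and *Lhx1* (4.39, in 4 of 5 retinas) were also higher in *Gad1*-only cells. *Krt73* (-8.71), *Chodl* (-8.47), *Ripply3* (-8.13), the proneural factor *Neurod4* (-7.33, in the explants -2.66) and *Gm26870* (-7.30) were higher in *Gad2*-only cells. *Krt73*, *Chodl*, *Ripply3* and *Gm26870* had 0 UMIs in *Gad1*-only cells, so their fitted differences are no bounds.

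**Figure D5:**
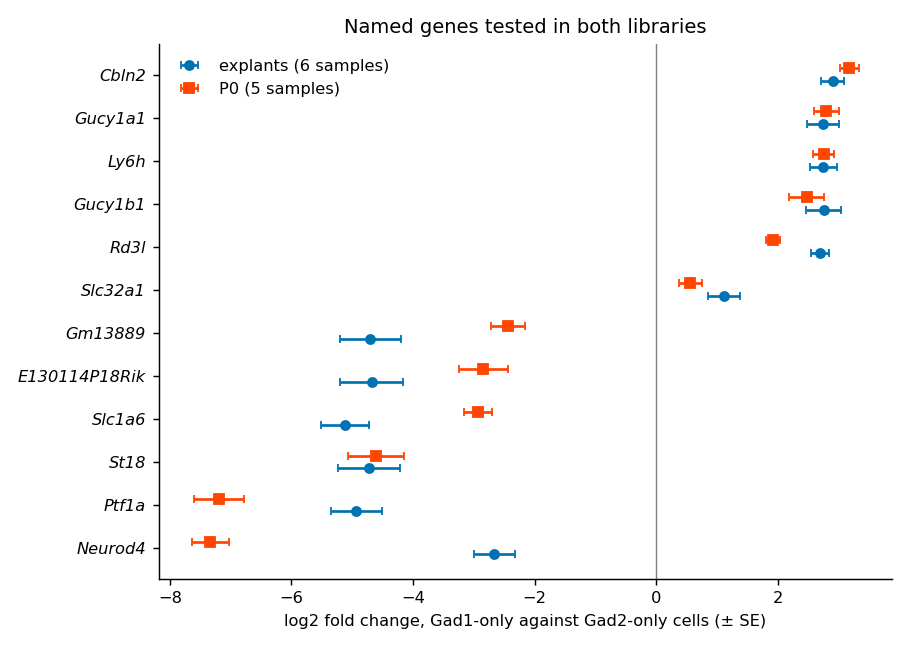
Log2 difference between *Gad1*-only and *Gad2*-only amacrine cells (positive, higher in *Gad1*-only) for 12 genes in the explants and at P0; points are edgeR estimates and bars ± 1 SE. *Slc32a1* differs by 1.11 and 0.56, *Cbln2* by 2.90 and 3.18, and *Ptf1a* by -4.93 and -7.20.

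Of 3797 genes tested in both libraries, 572 passed in both, 71.5% of the 800 explant calls and 55.9% of the 1024 P0 calls, and 569 of the 572 had the same direction. Genes of the chloride transport and GABA receptor lists were among those higher in *Gad1*-only cells of both. Among them were *Slc12a5* (2.81 in the explants and 1.54 at P0), *Gphn*, the receptor scaffold (1.00 and 0.83), and the GABA receptor subunit gene *Gabra2* (1.53 and 1.79). *Glra2*, the glycine receptor subunit of developing neurons, passed in the explants (2.82, adjusted p = 8.59e-11) and not at P0 (0.32, adjusted p = 0.339), and the difference between the libraries was not tested. *Abat*, which breaks GABA down, was lower in *Gad1*-only cells (-1.31 and -0.98). It is on the uptake and recycling list, which moved both ways. Of that list 6 genes were tested in the explants, 1 rose and 1 fell, and at P0 7 were tested, 2 rose and 2 fell. Of the GABA receptor list 3 of 4 genes tested rose in the explants and 5 of 5 at P0. Of the glycinergic list 3 of 3 and 3 of 4 fell, among them *Tcf4* (-2.25 and -2.84), *Lhx9*, which is on both marker lists (-1.89 and -2.60), and *Car2* (-0.91 and -1.56). Of the GABAergic list 5 genes were tested in the explants, 3 rose and 1 fell, and at P0 9 were tested, 6 rose and 1 fell.

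Markers of other cell types also differed between the 2 classes at P0. *Gad1*-only cells held a summed 644 CPM of horizontal and 865 of ganglion markers, against 228 and 111 in *Gad2*-only cells, with 0 UMIs of *Pou4f1* and 1 of *Pou4f2* among the ganglion markers. In the explants these sums were 143 and 190 against 269 and 182. Progenitor markers were lower in *Gad1*-only cells of both libraries, at 236 against 410 CPM at P0 and 152 against 274 in the explants for the primary progenitor list. The part of these markers in the differences was not tested.

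The agonist and the *Sstr2* genotype moved none of the members tested past the threshold in amacrine cells. *Slc6a5* was below the filter on low counts for 500 against 0 nM and for knockout against heterozygous, and *Slc6a9* for 500 against 0 nM. In the explants *Gad1* stood at 70.3 and 84.3 CPM without agonist, 47.3 and 69.2 at 5 nM, 33.6 and 53.1 at 50 nM, and 43.7 and 45.2 at 500 nM. The 500 nM samples lay below the 0 nM samples, and *Gad1* had a log2 difference of -0.74 (SE 0.22, adjusted p = 0.302, edgeR), where 22 of 8188 genes, 0.269%, passed. Over all doses its slope on log10(dose + 1) was -0.30 (SE 0.08, adjusted p = 0.17), with 10 genes, 0.122%, past the threshold. *Gad2* stood at 354 and 315 CPM at 0 nM and 299 and 272 at 500 nM (log2 difference -0.25, adjusted p = 0.889). *Slc32a1* stood at 56.0 and 55.0 CPM at 0 nM and 55.2 and 63.0 at 500 nM (0.09, adjusted p = 0.986). The untested *Slc6a9* had 4 and 2 UMIs at 0 nM and 5 and 7 at 500 nM. None of the fixed lists held a gene past the threshold at 500 nM.

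At P0, 4 of 10373 genes, 0.0386%, passed between retinas labelled knockout and heterozygous by edgeR, and 445 had an unadjusted p under 0.05. The number rose to 13 and 31 without either heterozygous retina and to 52 and 67 without either knockout retina. *Gad1* was lower in both knockout than in both heterozygous retinas (49.4 and 41.7 against 58.0 and 60.6 CPM, log2 difference -0.37, SE 0.16, adjusted p = 0.998). *Slc6a9* stood at 4.06 and 1.69 against 9.09 and 6.44 CPM (-1.42, SE 0.61, adjusted p = 0.998). *Gad2* and *Slc32a1* had log2 differences of 0.21 and -0.05, and *Slc6a5* was below the filter. At P14, 0 of 4715 genes passed by edgeR (124 at an unadjusted p under 0.05), and the 2 heterozygous sums came from 4 cells each. The log2 differences there were 1.58 for *Gad1*, 0.58 for *Gad2*, 1.05 for *Slc32a1* and 0.65 for *Slc6a9* (adjusted p = 1.00), against a median of 0.31 over all genes. They were 0.94, 0.05, 1.83 and 0.14 without the 12 cells, none past the threshold. The change of the knockout effect between ages called 0 of 10792 genes (564 unadjusted), with *Gad1* at 2.25 (SE 0.67, adjusted p = 0.841).

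In the other cell types no member was called by genotype or by 500 nM against 0 nM. Only 11 such tests of a member passed the filter on low counts. They fell in types where 0.0988% (neurogenic progenitors), 0.0941% (photoreceptors) and 0.317% (primary progenitors) of all genes were called in the explants, 0.0111%, 0.0592%, 0.00838% and 0.586% (the same types and RGCs) at P0, and 0.102% (Müller glia) and 0.0106% (rods) at P14. The largest shift with an unadjusted p under 0.05 was *Gad2* in explant neurogenic progenitors, higher at 500 nM by 1.02 (SE 0.42, adjusted p = 0.902, edgeR). *Slc6a9* in P14 rods differed by 0.08 (SE 0.25, adjusted p = 1.00).

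The share of glycine-side cells among cells with 1 side, thinned to 2000 UMIs, was set against dose and genotype. Over the 8 explants its correlation with log10(dose + 1) gave Pearson's r = 0.68 (exact permutation test, two-sided, p = 0.069, adjusted p = 0.121 over 7 tests) and Spearman's rho = 0.65 (exact permutation p = 0.110). Without the 2 samples at 500 nM r was 0.39, so the relation rests on them, and it counts 8 glycine-side cells in all. Knockout retinas differed from the others by -2.07 points at P0 (exact permutation test, two-sided, p = 0.2, the smallest for 2 against 3) and 21.4 points at P14 (p = 0.4). The P14 shares rest on few cells. Glycine-side and GABA-side cells numbered 0 and 6 in the wild-type retina, 0 and 1, and 1 and 2 in the heterozygous, and 2 and 6, and 4 and 6 in the knockout retinas.

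The genes whose levels followed each member most closely over the sums of sample and cell type were ranked by Pearson's r of log2(CPM + 1). At P0 (25 sums) these were *Gbx2* (0.99), *Kcna5* (0.98) and *Has2* (0.98) for *Gad1*, with *Slc32a1* at rank 6 (0.96), and *St18* (0.98), *Bmi1* (0.97) and *Gad1* (0.96) for *Slc32a1*. *Gad2* was closest to *Gsdme* (0.93), *Mir9-3hg* (0.92) and *Arglu1* (0.92). *Slc6a9* was closest to *Abhd3* (0.90), *Insm2* (0.89) and *Atf6* (0.89). In the explants (39 sums) *Slit2* (0.93) was closest to *Gad1*, whose r with *Gad2* was 0.20, and *Abhd3* (0.83) again followed *Slc6a9*, after *Tpbgl* (0.84). At P14 (23 sums) the closest genes were *Kcnk9* to *Gad1* (0.92), *Ddo* to *Gad2* (0.91) and *Gas7* to *Slc6a9* (0.81). Sums of 1 sample share a library and sums of 1 type share cells, so these are descriptions only.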

How the data were processed

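Raw UMI counts per gene and cell were used as the authors deposited them for each library, without further normalization. Per the labels and the study's methods, the authors made 10x Chromium 3′ libraries, assigned cells to samples with deMULTIplex, clustered with Seurat and named cell types by cluster markers. The submitters' processing notes name Cell Ranger 3.1.0, Seurat 3 and mm10. The filters on cells are not given in the sources used here. Sample, condition and cell type were taken from the authors' deposited annotation. The SCT-normalized values were not used. The 5 genes, the lists and the named genes were chosen with earlier results of these data known.

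UMIs of the cells of 1 type in 1 sample were added up, and samples with at least 10 cells gave levels in CPM. Sums were tested with edgeR 4.0.16 (quasi-likelihood, TMM, filterByExpr, adjustment by Benjamini-Hochberg) in R 4.3.3, each library fitted as a whole. In 2 of the fits the ages or libraries were joined. Alternatives were DESeq2 1.42.0, DESeq2's size factors in edgeR, no filter, each sample left out, all knockout against other retinas, and omission of the 5% of cells with the highest Scrublet scores, since Scrublet in scanpy 1.11.5 marked 115, 7 and 2 cells, of which the last 2 numbers were taken as failed calls. Co-detection was computed on all UMIs and on cells thinned to 2000 UMIs (1000 and 3000 as alternatives), where shallower cells were left out (14 explant, 0 P0 and 5 P14 amacrine cells). Exact permutation tests enumerated all splits of samples, with the smaller tail doubled. Named beside the 5 genes and the fixed lists were the 3 genes closest to each by Pearson's r (among genes with at least 10 CPM in 1 type) and, for the *Gad1*-only split, the 5 called genes that rose most and the 5 that fell most among those with at least 100 UMIs, a rule made for the planned comparison of glycine-side with GABA-side cells that could not be run. Other genes were named after their values were seen, and a few genes that these rules or lists hold are not reported here.

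On simulated counts with 4-fold changes, edgeR recovered 86% of 200 changed genes for P0 knockout against heterozygous among 10347 genes (7 false calls), 88% for the explants among 8301 (5), 91.1% of 190 for P14 against P0 among 8539 (3) and 98.9% of 181 for the P0 *Gad1*-only split among 6197 (4). These values do not give the recovery of smaller changes, such as those of the members tested by dose or P0 genotype. No such values are given for P14 knockout against heterozygous. Python 3.11.15 with numpy 2.4.6, scipy 1.17.1, pandas 2.3.3 and matplotlib 3.10.9 served for the rest. Positions were read from GENCODE M21 and upstream stretches from RefSeq, both on GRCm38.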

Additional observations from a re-analysis of the deposited data

Results flagged for a closer look

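The *Slc6a5* level in explant amacrine cells stood out in 1 sample, the first at 5 nM, at 6.31 CPM against 0 to 2.21 CPM in the other 7. That value is 2 UMIs. Of 10 groups of samples screened in this way, chance flags about 1 in 20.

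The association of *Gad1* and *Gad2* within amacrine cells was flagged as different between P14 and P0. In 1 thinning draw at 2000 UMIs over all 5 retinas of each age, the log2 odds ratio was higher at P14 by 3.20 (exact permutation test, two-sided, p = 0.00794, the smallest for 5 against 5, adjusted p = 0.0556 over 7 tests). Over 100 draws the difference was 2.34 with all 5 P14 retinas and 2.21 with the 3 that held at least 10 amacrine cells. At this depth the heterozygous P14 retinas gave 3 and 4 cells. The first had 0 cells with *Gad2*, so its log2 odds ratio, 0.74 to 2.81 over 100 draws, was above 0 through the added constant alone. The p-value for 5 against 5 counts this retina as a replicate, so no conclusion is drawn from it. The share of cells with *Gad2* among cells with *Gad1* minus that among cells without it, which needs no added constant, was 44.2 percentage points higher at P14, and 41.4 points without the P14 cells that held *Onecut1*, *Onecut2* or *Lhx1* UMIs (exact permutation p = 0.0357 for both). With the 3 P14 retinas that held at least 10 amacrine cells, the P14 side rests on 15, 22 and 23 cells, and each age is 1 library.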

How the results depend on the processing

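Of 122 member levels computed under an alternative, 119 moved by less than the spread between samples, and of 433 values of single genes in edgeR comparisons 415 kept their direction and side of the threshold, 7 lost a call, 1 gained one and 10 turned direction. No paired analysis was possible because the replicate numbers only name samples and the barcode names differ between the groups compared. The planned comparisons of glycine-side with GABA-side cells could not be run, since every sample held under 10 cells of the glycine side only.

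The lower co-detection of *Gad1* and *Gad2* in explants and at P0 held without thinning and at 3000 UMIs. In a single draw at 1000 UMIs the log2 odds ratio was 0.16 in the explants, 0.032 at P0 and -0.71 at P14, and the P14 minus P0 difference -0.38 (exact permutation p = 0.524). The mean of 100 draws at P14 was 1.15 at 1000 and 1.27 at 2000 UMIs. With each sample left out, the share difference of P14 and P0 ranged from 29.3 to 59.6 points, lowest without the second P14 knockout retina, and none passed 0.05, which these smaller designs cannot reach.

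Other associations had no stable direction. *Slc32a1* with either decarboxylase gene gave 0.075, 0.34, 0.36 and 0.28 in the explants (1000 UMIs, 3000 UMIs, not thinned, at least 2 UMIs), 0.95 and 0.63 at P0 (not thinned, at least 2 UMIs) and -0.45 at P14 (1000 UMIs), and with samples left out -0.046 to 0.16 at P0 and -0.49 to 0.93 at P14. The glycine side with the GABA side gave 1.81, 0.59, 0.043 and 0.020 in the explants, 0.44, 1.83 and 1.43 at P14 (3000 UMIs, not thinned, at least 2 UMIs), and -0.32 to 0.74 at P0 and -0.84 to 0.71 at P14 with samples left out. Its P14 minus P0 difference was -2.17 at 1000 UMIs (exact permutation p = 0.0317) and 0.33 at 2 or more UMIs (exact permutation p = 0.762). The dose correlation of the glycine-side share ranged from 0.51 to 0.79 with samples left out, the last (exact permutation p = 0.0413) without the first 50 nM sample.

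Calls between knockout and heterozygous P0 retinas numbered 59 without the filter, 2 against wild type and heterozygous together, and 13 to 67 with a retina left out (13 and 31 without a heterozygous, 52 and 67 without a knockout retina). *Slc32a1* there ranged from -0.21 to 0.15 with a retina left out and was 0.066 against wild type and heterozygous together. At P14 the calls were 0 to 1 with a retina left out, 4 against wild type and heterozygous together and 1 without the cells that held *Onecut1*, *Onecut2* or *Lhx1* UMIs, while *Gad2* ranged from -1.05 to 7.01 and *Slc6a9* from -0.96 to 7.42 with a retina left out. Between 500 and 0 nM the calls were 1 by DESeq2, 39 without the filter and 10 for the slope over all doses. *Gad1* in explants against P0 ranged from -0.050 to 0.11 with samples left out and was -0.0053 without the highest Scrublet scores. DESeq2 called 457 genes for the *Gad1*-only split in explants and 804 at P0. The causes were not tested. The 68 P14 amacrine cells, of which heterozygous retinas gave 4 each, and the 21 and 4 UMIs of *Slc6a5* in P0 and explant amacrine cells limit what could be detected.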
